A study of Mus musculus with 18 samples.

Results

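Expression of 10 genes tied to the transcription factor HIF-1, to glycolysis and to the removal of mitochondria by autophagy (mitophagy) was followed across 6 groups of mouse embryonic fibroblasts. The genes are Bnip3, Pdk1, Hif1a, Vegfa, Egln3, Slc2a1, Ldha, Pgk1, Hk2 and Ankrd37, which are 10 of 19937 genes with a probe set of their own. They were chosen by name, each gene was represented by the brightest probe set that names it alone, and all 10 were among the 15711 genes bright enough to be tested. In hypertonic medium Bnip3 and Pdk1 fell in wild-type cells, 3.04-fold and 2.88-fold, while the other 8 did not pass the test there. In knock-out cells both were also lower in each pair of same-numbered arrays. With all arrays they did not pass the test there without a block, and passed with the array number as a block (adjusted p = 0.00374 and 0.0493). They also passed without the block when the highest-numbered arrays were left out of every group (adjusted p = 0.00774 and 0.0339). The wild-type calls were lost when only the arrays compared were fitted, without the block (adjusted p = 0.0507 and 0.0649). With the block and all arrays the wild-type adjusted p were 0.00015 and 0.000463.

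Total RNA was hybridised to 18 Affymetrix mouse gene arrays, 3 per group, carrying the numbers 1, 2 and 4. The cells are embryonic fibroblasts of strain 129sv/ev, labelled NFAT5 wild-type (WT) or NFAT5 knock-out (KO), and Nfat5 encodes the transcription factor that raises osmolyte genes in hypertonic medium. WT cells were kept in isotonic medium (300 in the titles) or hypertonic medium (500, with no unit given), each without Torin1 or after 1 h of pretreatment with 100 nM of this inhibitor of the kinase mTOR. KO cells received no Torin1 and were kept in either medium. Each genotype comes as 1 labelled source of cells, so genotype and line cannot be told apart, and neither the time in hypertonic medium nor whether arrays are separate cultures is stated. The p-values therefore measure only the spread between these arrays. Signals are log2 values, and a change is a difference of group means ± its limma standard error (3 arrays in each group), called at a Benjamini-Hochberg adjusted p below 0.05. Array values in the text are listed in the order of numbers 1, 2 and 4.

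HIF-1 is a pair of an unstable alpha subunit, encoded by Hif1a, and a stable partner. When oxygen is plentiful, prolyl hydroxylases of the Egln family mark the alpha subunit for degradation, and when oxygen is scarce it persists and binds short sites in the promoters of its targets. These targets take up glucose (Slc2a1), carry it through glycolysis (Hk2, Pgk1), turn pyruvate into lactate (Ldha), keep pyruvate out of the citric acid cycle by phosphorylating pyruvate dehydrogenase (Pdk1), place a mitophagy receptor on the mitochondrial outer membrane (Bnip3), signal for blood vessels (Vegfa) and feed back on the sensor (Egln3). Hif1a messenger RNA is a poor guide to the amount of the protein, which is regulated mainly by its stability.

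The core of the HIF-1 binding site is ACGTG or GCGTG. Promoter sequences from RefSeq (GRCm38.p6, 250 bases before to 50 after each gene start) were searched for these letters on both strands, and CACGTG, the E-box bound by other factors, counts as ACGTG on both strands. Of 32851 promoters of this length 19.6% held ACGTG, 32.4% GCGTG, 43.8% either and 20.6% at least 2 matches, and 7.15% held CACGTG. Among the 13 promoters listed for the 10 genes, 11 held a match, 10 held at least 2, and all 10 genes had at least 1 promoter with a match. The 250 bases before the start are printed 5′ to 3′ for the mitophagy receptor and the kinase that fell, for the lactate enzyme that did not pass, and for the hexokinase, with matches in capitals. Bnip3 lies at chr7:138909507-138909756 on the minus strand, Pdk1 at chr2:71872974-71873223 on the plus strand, Ldha at chr7:46845554-46845803 on the plus strand and Hk2 at chr6:82774455-82774704 on the minus strand.
Bnip3: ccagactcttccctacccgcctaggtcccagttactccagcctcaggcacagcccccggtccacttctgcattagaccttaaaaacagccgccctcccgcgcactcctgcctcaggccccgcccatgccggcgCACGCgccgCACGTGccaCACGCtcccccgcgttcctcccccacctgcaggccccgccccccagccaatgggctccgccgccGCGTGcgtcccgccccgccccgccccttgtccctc
Pdk1: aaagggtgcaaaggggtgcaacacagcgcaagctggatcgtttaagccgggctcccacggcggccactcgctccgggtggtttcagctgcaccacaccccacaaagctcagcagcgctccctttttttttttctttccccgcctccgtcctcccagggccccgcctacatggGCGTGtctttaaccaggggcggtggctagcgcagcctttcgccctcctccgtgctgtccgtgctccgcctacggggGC
Ldha: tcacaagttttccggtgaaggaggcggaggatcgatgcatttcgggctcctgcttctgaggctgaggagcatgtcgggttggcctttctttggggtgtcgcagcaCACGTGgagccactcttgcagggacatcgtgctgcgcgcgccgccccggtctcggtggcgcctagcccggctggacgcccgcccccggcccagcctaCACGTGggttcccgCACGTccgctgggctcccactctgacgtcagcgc
Hk2: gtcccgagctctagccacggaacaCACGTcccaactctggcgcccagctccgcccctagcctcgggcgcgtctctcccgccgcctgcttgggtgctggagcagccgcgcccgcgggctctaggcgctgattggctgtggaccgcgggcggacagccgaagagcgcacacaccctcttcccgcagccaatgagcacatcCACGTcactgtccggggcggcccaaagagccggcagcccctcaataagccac
Bnip3 had 5 matches, among them a CACGTG that counts on both strands, and Pdk1 had 2, of which the one at the end of the printed stretch (2 capitals) runs into the transcribed part. Ldha had 7 matches, of which 2 lie past the gene start, and Hk2 had 2. The other starts listed for Pdk1 and Ldha had 0 and 2. Hif1a had 3 matches, Pgk1 and Slc2a1 2 each, Ankrd37 4, Egln3 1, and the 2 listed starts of Vegfa had 2 and 0. Matches of these letters were thus present both in genes that fell and in genes that did not pass the test, and a match is a description of the sequence only.

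Some features of the whole set touch these results. Nfat5 was at 10.13, 9.99 and 9.94 in isotonic WT and at 9.83, 9.72 and 9.73 in isotonic KO cells, and at 10.77, 10.46 and 10.18 in hypertonic WT against 10.13, 10.22 and 9.73 in hypertonic KO cells. The KO minus WT difference for Nfat5 was -0.26 ± 0.16 (limma, adjusted p = 0.367) under isotonic and -0.44 ± 0.16 (adjusted p = 0.0503, with the array number as a block 0.00591) under hypertonic conditions. The signal was lower by less than 2-fold, and since the deleted stretch is not given it does not check the labels. The isotonic KO array 1 is titled KO while its genotype label says wild-type, and it was kept as KO by its title. Its centred profile correlated at 0.917 and 0.674 with the other isotonic KO arrays and at -0.30 to -0.57 with the WT arrays. Array medians over genes lay between 7.53 and 7.74. All 10 fibroblast markers exceeded the filter in every group, and their summed signal was 15.59 to 15.95 (log2) in WT and 15.98 to 16.16 in KO arrays. Single markers differed more than the sums. In isotonic KO cells 3 were called higher and 0 lower, among them Thy1 (3.88 ± 0.17, adjusted p = 2.33e-10) and Pdgfra (2.25 ± 0.36, 0.000319). In hypertonic KO cells 4 were called higher and 0 lower, among them Thy1 (4.01 ± 0.17, 1.37e-10) and Dcn (4.02 ± 1.37, 0.0353). Over all genes these shares were 7.78% and 6.84%, then 13.8% and 18%. Of 6 endothelial markers 2 to 4 exceeded the filter, with sums of 8.40 to 8.71 in WT and 8.69 to 9.81 in KO arrays. Tek among them was higher in KO cells by 2.05 ± 0.39 in isotonic (adjusted p = 0.00161) and 2.44 ± 0.39 in hypertonic medium (adjusted p = 0.000211). It was the 1 called higher of 4 tested in each medium, with 0 lower. The part of the fibroblast and endothelial markers in the results was not tested. Epithelial markers (4 to 5 of 6) summed to 9.13 to 9.37 in WT and 9.43 to 9.88 in KO arrays, without overlap. Cdh1 among them was higher in KO cells by 1.72 ± 0.22 in isotonic (adjusted p = 4.95e-05) and 0.79 ± 0.22 in hypertonic medium (adjusted p = 0.0129). In each medium 1 of 5 tested was called higher and 0 lower. In isotonic medium Epcam (-0.05) and Krt8 (-0.06) were lower in KO cells and Krt18 (0.13) and Cldn4 (0.14) higher, none past the test. Blood cell markers (3 to 4 of 6) summed to 9.50 to 9.66 in isotonic arrays. The hypertonic sums were 9.57 to 10.18 in WT, 9.55 to 10.25 in WT with Torin1 and 9.57 to 9.81 in KO arrays. Each of these ranges overlapped that of the isotonic arrays. Itgam among them was called higher in hypertonic WT (0.83 ± 0.22, adjusted p = 0.031) and KO cells (1.18 ± 0.22, adjusted p = 0.000806). In each, 1 of 4 tested was called higher and 0 lower, to be read beside the shares over all genes given below. Cd68 changed by -0.11 and -0.06, Csf1r by 0.74 and -0.13 and Cd3e by 0.07 and 0.06, WT first, none past the test without the block. Csf1r was lower in hypertonic KO than in hypertonic WT cells (-1.36 ± 0.24, adjusted p = 0.000566). The part of these markers in the results was not tested either. In such bulk samples a smaller share of cells with a transcript and less transcript per cell cannot be told apart.

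**Figure D1:**
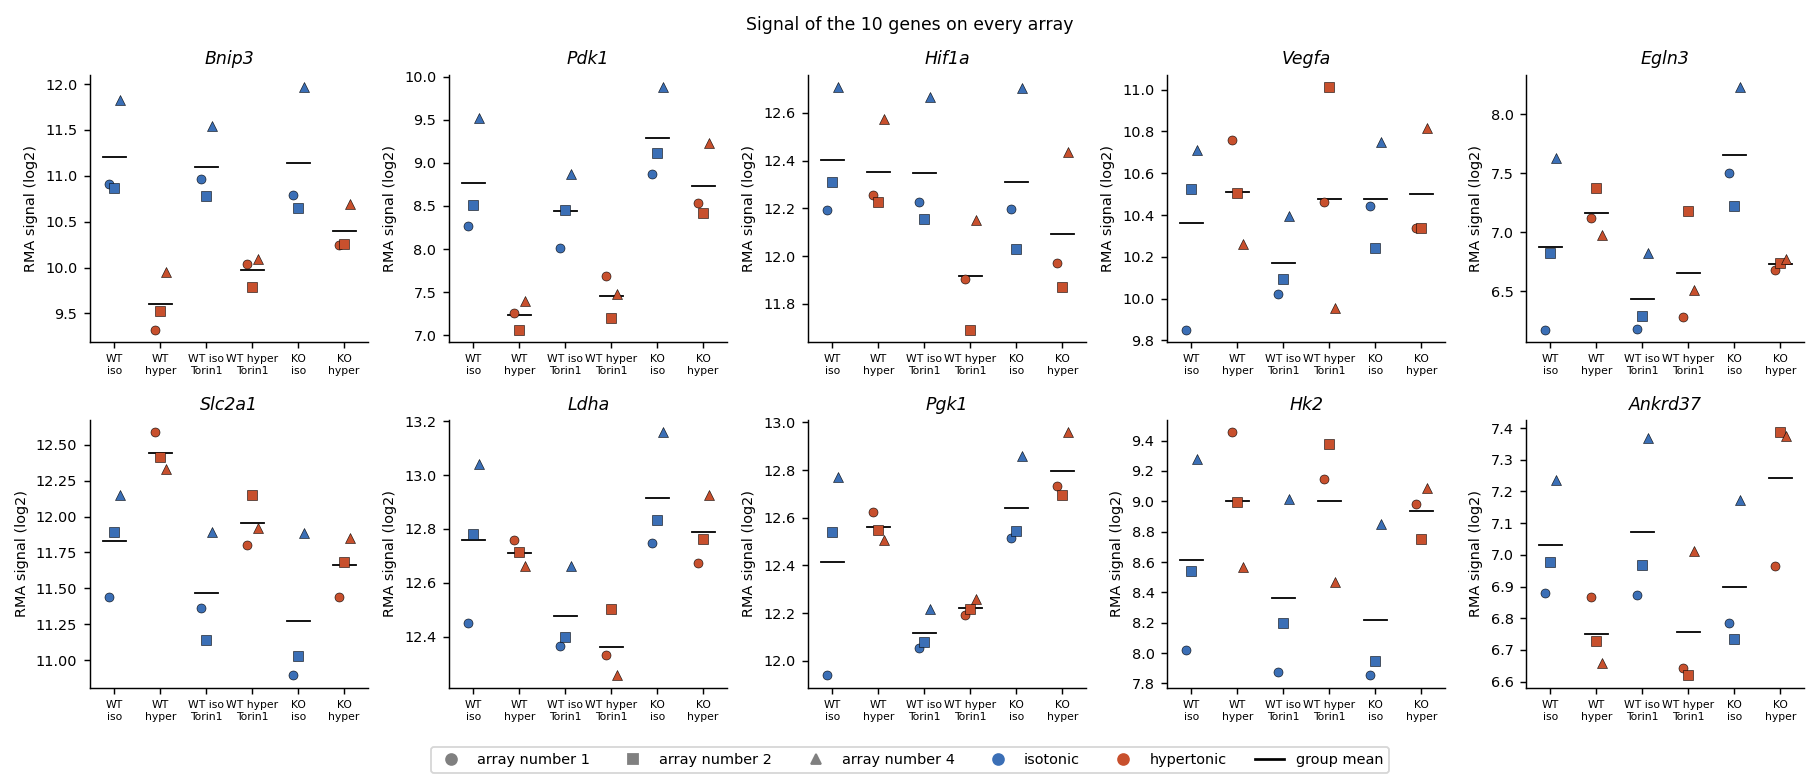
RMA signal (log2) of the 10 genes on each of the 18 arrays, by group, with bars at the group means of 3 arrays. Bnip3 lies between 9.32 and 9.95 in hypertonic WT and between 10.86 and 11.83 in isotonic WT arrays, and arrays of number 4 are the highest of their group for Bnip3 in every group.

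The first question is how each line responded to hypertonic medium. In WT cells 0 of the 10 genes were called higher and 2 lower, against a background of 3.94% and 4.3% of all tested genes, and 3 had an unadjusted p below 0.05. The share of all genes with an unadjusted p below 0.05 was not counted in any comparison. It is at least the share called, so counts by unadjusted p are a description only, here and below. With Torin1 none was called in either direction (limma, 2 with an unadjusted p below 0.05) against 1.65% higher and 1.72% lower. In KO cells 0 were called higher and 1 lower, against 12.9% and 17.2%, and 2 had an unadjusted p below 0.05. The median change of the 10 genes was 0.05 for WT cells, -0.00 under Torin1 and -0.05 for KO cells, while that of all tested genes was 0.02 in each. The medians of the 10 genes thus lay near that of all genes in these comparisons, and a shared shift was not tested.

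**Figure D2:**
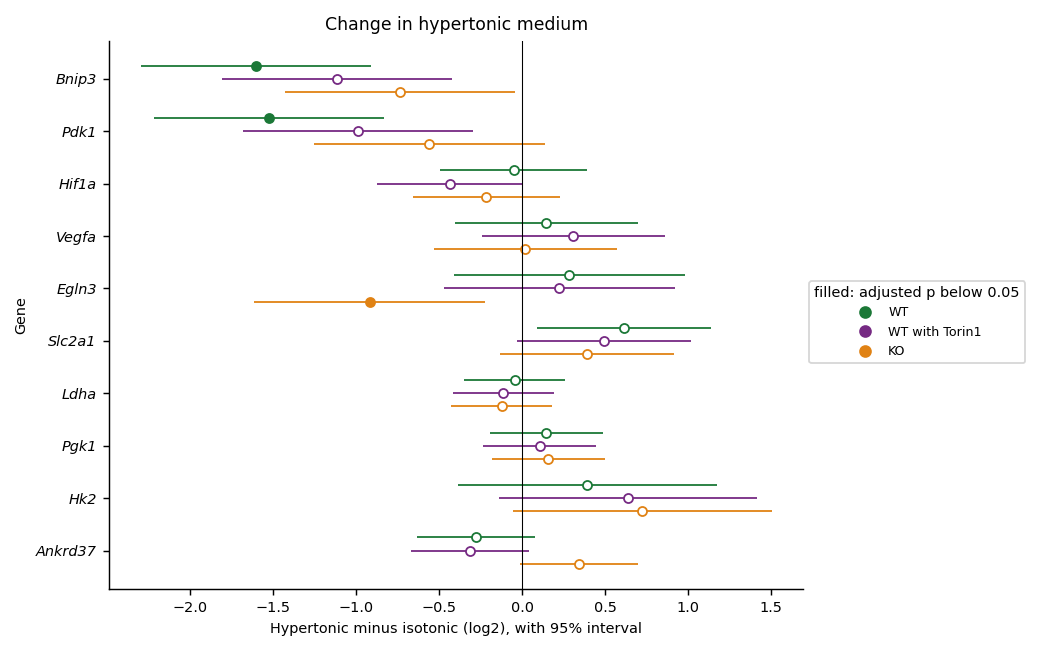
Hypertonic minus isotonic change (log2) of the 10 genes with its 95% interval, in WT, WT with Torin1 and KO cells, where filled points passed an adjusted p of 0.05. The filled points are Bnip3 (-1.60) and Pdk1 (-1.53) in WT cells and Egln3 (-0.92) in KO cells.

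Bnip3 encodes a receptor on the outer mitochondrial membrane that binds the autophagy proteins of the LC3 family. Its log2 signal was 10.91, 10.86 and 11.83 in isotonic WT arrays and 9.32, 9.52 and 9.95 in hypertonic WT arrays. Every hypertonic array lay below every isotonic array, and the change was -1.60 ± 0.33 (limma, adjusted p = 0.00769). With Torin1 the signal was 10.96, 10.78 and 11.55 in the isotonic and 10.04, 9.79 and 10.09 in the hypertonic arrays. Those groups did not overlap either, with a change of -1.12 ± 0.33 (2.17-fold, adjusted p = 0.074). In KO cells the signal was 10.79, 10.65 and 11.97 in the isotonic and 10.24, 10.26 and 10.69 in the hypertonic arrays. Here hypertonic array 4 lay just above isotonic array 2, so the groups overlapped, and the change was -0.74 ± 0.33 (1.67-fold, adjusted p = 0.105). Within each array number the change was -1.59, -1.34 and -1.88 in WT, -0.92, -0.98 and -1.45 with Torin1, and -0.55, -0.38 and -1.28 in KO cells, lower in 9 of 9 pairs of arrays. With the array number as a block, the falls with Torin1 (adjusted p = 0.00195) and in KO cells (adjusted p = 0.00374) passed the test.

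A second probe set names Bnip3 alone and was read in its own right. Its signal was 10.16, 10.08 and 11.10 in isotonic WT, 8.66, 8.91 and 9.02 in hypertonic WT, 10.21, 9.88 and 10.52 in isotonic WT with Torin1 and 9.29, 9.22 and 9.37 in hypertonic WT with Torin1. The isotonic KO arrays stood at 10.11, 9.85 and 11.17 and the hypertonic KO arrays at 9.62, 9.47 and 9.75. The changes of this second Bnip3 probe set were -1.58 ± 0.30 in WT (adjusted p = 0.00527), -0.91 ± 0.30 with Torin1 (adjusted p = 0.114, with the block 0.0133) and -0.77 ± 0.30 in KO cells (adjusted p = 0.0651, with the block 0.00741). Both probe sets thus gave the same direction in the 3 settings and the same calls with and without the block.

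Pdk1 encodes a kinase that switches off pyruvate dehydrogenase, the enzyme that admits pyruvate to the citric acid cycle. Its log2 signal was 8.27, 8.51 and 9.52 in isotonic WT and 7.26, 7.07 and 7.39 in hypertonic WT arrays, without overlap. The change was -1.53 ± 0.33 (limma, adjusted p = 0.0101). With Torin1 the signal was 8.01, 8.45 and 8.87 in the isotonic and 7.69, 7.20 and 7.48 in the hypertonic arrays, also without overlap. That change was -0.99 ± 0.33 (adjusted p = 0.118, with the block 0.0113). In KO cells Pdk1 stood at 8.88, 9.11 and 9.88 in isotonic and at 8.54, 8.42 and 9.23 in hypertonic arrays. The KO arrays overlapped through hypertonic array 4, and the change was -0.56 ± 0.33 (adjusted p = 0.228, with the block 0.0493). Number by number Pdk1 changed by -1.01, -1.44 and -2.12 in WT, -0.32, -1.25 and -1.39 with Torin1 and -0.34, -0.69 and -0.65 in KO cells.

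The WT calls of Bnip3 and Pdk1 held when any of the 18 arrays was left out. They were lost when only the 6 arrays of that comparison entered the fit, at adjusted p of 0.0507 for Bnip3 and 0.0649 for Pdk1. Leaving out isotonic KO array 4, which is not in the comparison but adds to the estimate of spread, brought Bnip3 with Torin1 past the test (-1.12, adjusted p = 0.026).

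Among the oxygen sensing genes, Hif1a, the alpha subunit itself, was at 12.19, 12.31 and 12.71 in isotonic WT and at 12.26, 12.23 and 12.57 in hypertonic WT arrays. Those groups overlapped and the Hif1a change was -0.05 ± 0.21 (95% interval -0.49 to 0.39, adjusted p = 0.939). With Torin1 it was at 12.23, 12.16 and 12.67 in isotonic and at 11.90, 11.69 and 12.15 in hypertonic arrays. These did not overlap, at -0.43 ± 0.21 (adjusted p = 0.313), and the block called Hif1a lower there (adjusted p = 0.00734). In KO cells Hif1a was at 12.20, 12.03 and 12.70 in isotonic and 11.97, 11.87 and 12.44 in hypertonic arrays, a difference of -0.22 ± 0.21 (adjusted p = 0.491).

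Egln3 encodes an oxygen-dependent prolyl hydroxylase and is itself a HIF-1 target. In KO cells its signal was 7.50, 7.22 and 8.23 in the isotonic and 6.68, 6.74 and 6.78 in the hypertonic arrays. The groups did not overlap and Egln3 fell by 0.92 ± 0.33 on the log2 scale (adjusted p = 0.0447, with the block 0.0184). In WT it was at 6.17, 6.82 and 7.63 in isotonic and 7.12, 7.37 and 6.98 in hypertonic arrays. The isotonic WT arrays spanned all the hypertonic ones, and the difference was 0.28 ± 0.33 (adjusted p = 0.699). With Torin1 Egln3 was at 6.18, 6.29 and 6.83 and then 6.28, 7.18 and 6.51, which overlap, at 0.22 ± 0.33 (adjusted p = 0.831). The KO call lay close to the threshold. It was lost without isotonic WT array 2 (adjusted p = 0.055), isotonic Torin1 arrays 1 (0.051) or 2 (0.0541), hypertonic WT arrays 1 (0.0545) or 2 (0.0524), or hypertonic Torin1 array 4 (0.0505), none of which enters the comparison itself. Without isotonic KO array 1 Egln3 was at -0.996 (adjusted p = 0.0697), without isotonic KO array 4 at -0.63 (0.199), and without hypertonic KO arrays 1, 2 or 4 its adjusted p was 0.105, 0.0958 and 0.0798. It was also lost with isotonic KO array 1 counted as WT (-0.996, adjusted p = 0.0851), with arrays centred on their medians (-0.77, 0.0739) and with no filter on dim genes (0.0525).

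Ankrd37 encodes an ankyrin repeat protein and is a target of HIF-1. Its signal was 6.88, 6.98 and 7.24 in isotonic WT and 6.87, 6.73 and 6.66 in hypertonic WT arrays. All hypertonic WT arrays were lower, number 1 only slightly, and the difference was -0.28 ± 0.17 (adjusted p = 0.356). With Torin1 it was at 6.87, 6.97 and 7.37 in isotonic and at 6.64, 6.62 and 7.01 in hypertonic arrays, a difference of -0.31 ± 0.17 (adjusted p = 0.386) with overlap. In KO cells the sign was the other one, with 6.79, 6.73 and 7.17 in isotonic and 6.97, 7.39 and 7.37 in hypertonic arrays. That difference was 0.34 ± 0.17 (adjusted p = 0.14) and passed with the block (adjusted p = 0.0453) and with arrays centred on their medians (0.49, adjusted p = 0.0353).

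With the array number as a block the 10 genes thus gave 0 higher and 3 lower calls with Torin1, where 4.08% and 3.78% of all genes were called higher and lower. In KO cells the block gave 1 higher and 3 lower, against 15.9% and 20.5%. Same-numbered arrays of groups compared directly deviated together (r of 0.156 to 0.847 over genes in 21 pairs).

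Slc2a1 encodes the glucose transporter GLUT1 and Hk2 the hexokinase that phosphorylates glucose at the mitochondrial surface. Slc2a1 was at 11.44, 11.89 and 12.15 in isotonic WT and at 12.59, 12.42 and 12.33 in hypertonic WT arrays. Every hypertonic WT array was higher, yet the difference of 0.62 ± 0.25 (95% interval 0.09 to 1.14) had an adjusted p of 0.142 (limma). With Torin1 Slc2a1 was at 11.36, 11.14 and 11.89 in isotonic and 11.80, 12.15 and 11.92 in hypertonic arrays, and in KO cells at 10.89, 11.03 and 11.88 and then 11.44, 11.68 and 11.85. Both pairs of groups overlapped through isotonic array 4, at 0.49 ± 0.25 (adjusted p = 0.342) and 0.39 ± 0.25 (adjusted p = 0.269). Without isotonic KO array 4 the KO difference was 0.70 and passed (adjusted p = 0.0285).

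Hk2 was at 8.02, 8.54 and 9.28 in isotonic WT and at 9.45, 8.997 and 8.57 in hypertonic WT arrays. The order of the numbers is turned between the media, the groups overlap, and the difference was 0.39 ± 0.37 (adjusted p = 0.608). With Torin1 Hk2 was at 7.88, 8.20 and 9.01 in isotonic and 9.15, 9.38 and 8.47 in hypertonic arrays, and in KO cells at 7.85, 7.95 and 8.85 and then 8.98, 8.75 and 9.09. Neither passed the test, at 0.64 ± 0.37 (adjusted p = 0.432) and 0.72 ± 0.37 (adjusted p = 0.161).

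Within array numbers the glucose genes split between number 4 and the others. Hk2 changed by 1.43 and 0.46 in numbers 1 and 2 of WT and by -0.71 in number 4, by 1.27, 1.18 and -0.54 with Torin1, and by 1.13, 0.80 and 0.24 in KO cells. Slc2a1 changed by 1.14, 0.52 and 0.18 in WT, 0.44, 1.01 and 0.03 with Torin1, and 0.55, 0.65 and -0.03 in KO cells. For Bnip3, in contrast, number 4 showed the deepest fall in all 3 settings. When arrays of number 4 were left out, an alternative chosen with the data known that leaves 2 arrays a group, Hk2 was called higher in WT (0.95, adjusted p = 0.00326), with Torin1 (1.23, 0.00129) and in KO cells (0.96, 0.00109). Slc2a1 was then also called higher in WT (0.83, adjusted p = 0.00308), with Torin1 (0.72, 0.0133) and in KO cells (0.60, 0.00988).

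**Figure D3:**
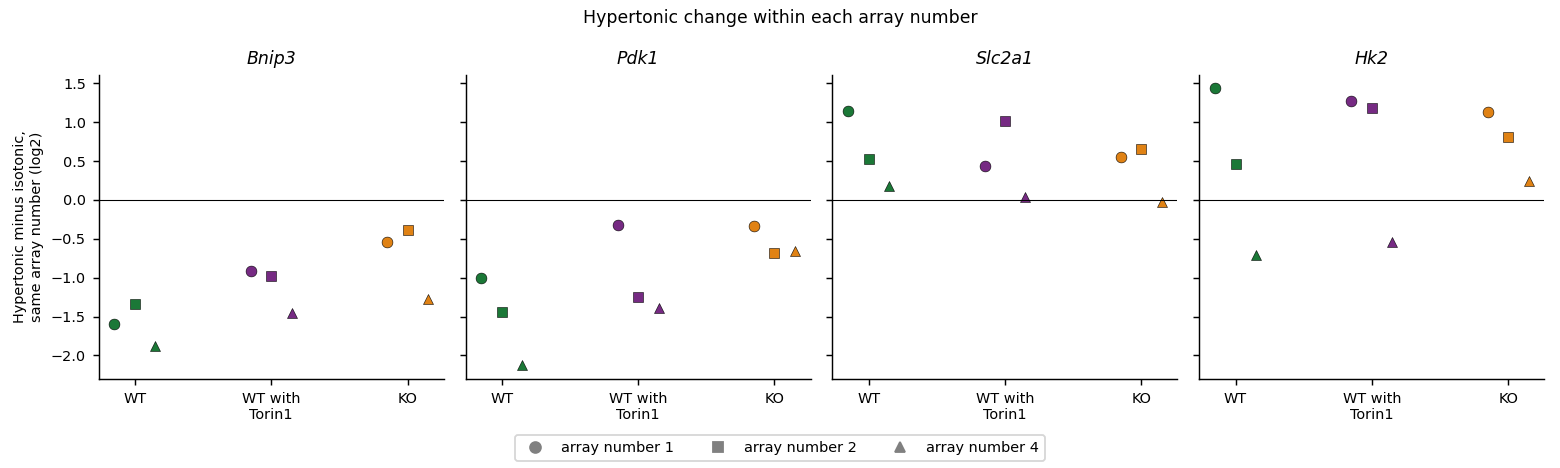
Change of Bnip3, Pdk1, Slc2a1 and Hk2 between the hypertonic and the isotonic array of the same number (log2), in WT, WT with Torin1 and KO cells, with 1 symbol per array number. All points of Bnip3 and Pdk1 lie below 0, and Hk2 in number 4 lies at -0.71, -0.54 and 0.24 while its other numbers lie between 0.46 and 1.43.

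Over the 10 genes, leaving out number 4 gave 3 higher and 2 lower calls in WT, against 11% and 10.2% of all tested genes. The counts were 3 and 3 with Torin1, against 5.53% and 4.42%, and 3 and 2 in KO cells, against 16.3% and 20.9%. Bnip3 and Pdk1 remained called in WT, at -1.46 (adjusted p = 9.66e-06) and -1.23 (adjusted p = 0.000441), and were called in KO cells at -0.46 (0.00774) and -0.51 (0.0339). Egln3 was called higher in WT (0.75, adjusted p = 0.0443), while its fall in KO cells was -0.65 (adjusted p = 0.0524).

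Ldha encodes the A subunit of lactate dehydrogenase and Pgk1 the phosphoglycerate kinase of the later steps of glycolysis. Ldha was at 12.45, 12.78 and 13.04 in isotonic WT and at 12.76, 12.71 and 12.66 in hypertonic WT arrays, and Pgk1 at 11.94, 12.54 and 12.77 and then 12.63, 12.55 and 12.51. Both genes overlapped between the media and spread less in hypertonic than in isotonic WT arrays. Their changes were -0.05 ± 0.14 for Ldha (95% interval -0.35 to 0.26, adjusted p = 0.914) and 0.14 ± 0.16 for Pgk1 (-0.20 to 0.48, adjusted p = 0.683). With Torin1 and in KO cells Ldha differed by -0.11 and -0.12 and Pgk1 by 0.11 and 0.16, none past the test. The 95% intervals of these 6 changes exclude a fall as large as that of Bnip3 in WT cells.

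Vegfa, the growth factor for blood vessels, was at 9.85, 10.52 and 10.71 in isotonic WT and 10.76, 10.50 and 10.26 in hypertonic WT arrays. These overlap, and the difference was 0.15 ± 0.26 (adjusted p = 0.826). With Torin1 Vegfa was at 10.02, 10.09 and 10.40 in isotonic and 10.46, 11.01 and 9.96 in hypertonic arrays, at 0.31 ± 0.26 (adjusted p = 0.648). In KO cells the isotonic arrays were at 10.44, 10.24 and 10.75 and the hypertonic ones at 10.34, 10.34 and 10.82, a difference of 0.02 ± 0.26 (adjusted p = 0.971). Vegfa within numbers 1, 2 and 4 changed by 0.91, -0.02 and -0.45 in WT cells.

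The effect of Torin1 was read in each medium. In isotonic WT cells none of the 10 genes was called in either direction, as for all tested genes (0% higher and 0% lower), and 0 had an unadjusted p below 0.05 (limma). The signs of the mean differences were uneven, 9 of 10 below 0 with a median of -0.27 against 0.01 over all genes. Within number 1, however, Bnip3 (0.05), Hif1a (0.04), Vegfa (0.17), Egln3 (0.01) and Pgk1 (0.12) lay above 0 and the others below. The share of negative signs over all genes was not counted in either medium, and genes that vary together do not give independent signs. The differences ranged from -0.44 for Egln3, -0.36 for Slc2a1, -0.32 for Pdk1, -0.30 for Pgk1 and -0.28 for Ldha to 0.04 for Ankrd37, each with an adjusted p of 1.

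In hypertonic WT cells 0 were called against 0.0573% higher and 0.0573% lower, and 1 had an unadjusted p below 0.05. Of the 10 differences 7 were negative, with a median of -0.18 against 0.01 over all genes. The arrays with and without Torin1 did not overlap for Slc2a1 (-0.49 ± 0.25, adjusted p = 0.459), Hif1a (-0.44 ± 0.21, 0.419), Ldha (-0.35 ± 0.14, 0.327) and Pgk1 (-0.34 ± 0.16, 0.418), all lower with the inhibitor and none past the test. The share of all tested genes whose arrays did not overlap was not counted, so this is a description only. With the array number as a block Hif1a was called lower (adjusted p = 0.0314), 1 call against 0.751% higher and 0.649% lower. Bnip3 was 0.38 ± 0.33 higher with Torin1 (adjusted p = 0.739) and Pdk1 0.22 ± 0.33 higher (adjusted p = 0.871), neither past the test. Without number 4 Bnip3 was called higher with Torin1 (0.49, adjusted p = 0.0359) and Hif1a lower (-0.45, adjusted p = 0.0398). Whether Torin1 altered the hypertonic change was tested as a difference of changes. None of the 10 was called and 0 had an unadjusted p below 0.05 (limma), against 0% and 0% of all genes. The difference was 0.49 ± 0.46 for Bnip3 (95% interval -0.50 to 1.47) and 0.54 ± 0.46 for Pdk1 (-0.44 to 1.52), so the intervals hold both no difference and a loss of much of the fall. For Hif1a it was -0.39, -0.38 and -0.38 within numbers 1, 2 and 4. With the block its 95% interval was -0.64 to -0.13, and Hif1a was not called (limma, adjusted p = 0.999).

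KO and WT cells were compared within each medium. In isotonic medium 0 were called (limma, 2 with an unadjusted p below 0.05), against 7.78% higher and 6.84% lower among all genes. The widest differences were 0.78 ± 0.33 for Egln3 (adjusted p = 0.14), -0.56 ± 0.25 for Slc2a1 (0.16) and 0.53 ± 0.33 for Pdk1 (0.353), while Bnip3 stood at -0.07 ± 0.33 (95% interval -0.76 to 0.63). The first pair of values depended on arrays of number 4. Without isotonic WT array 4 Egln3 was 1.15 higher in KO cells (adjusted p = 0.0196), and without isotonic KO array 4 Slc2a1 was -0.87 (adjusted p = 0.0152). Without number 4 in any group Egln3 (0.86, adjusted p = 0.0193) and Pdk1 (0.60, 0.0217) were called higher in KO cells and Slc2a1 lower (-0.71, 0.00542).

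In hypertonic medium 2 were called higher in KO cells and 1 lower, against 13.8% and 18%. An unadjusted p below 0.05 was found for 4, where the share over all genes was not counted but is at least that of the called genes. This comparison shares the hypertonic arrays with those above. Pdk1 was 1.49 ± 0.33 higher in KO cells (2.81-fold, adjusted p = 0.00245), with all KO arrays (8.42 to 9.23) above all WT arrays (7.07 to 7.39). Ankrd37 was 0.49 ± 0.17 higher (adjusted p = 0.0345), with KO arrays from 6.97 to 7.39 above WT arrays from 6.66 to 6.87. Slc2a1 was lower in KO cells, at -0.79 ± 0.25 (adjusted p = 0.0234), with KO arrays from 11.44 to 11.85 below WT arrays from 12.33 to 12.59. Bnip3 was 0.80 ± 0.33 higher in KO cells (adjusted p = 0.0739), with KO arrays from 10.24 to 10.69 above WT arrays from 9.32 to 9.95. The second Bnip3 probe set gave 0.75 ± 0.30 (adjusted p = 0.0674, with the block 0.0081).

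With the array number as a block 3 were called higher (Bnip3, Pdk1 and Ankrd37) and 2 lower (Slc2a1 and Hif1a), against 17.2% and 22% of all genes. The blocked adjusted p was 0.00195 for Bnip3 and 0.0243 for Hif1a, whose difference was -0.26 ± 0.21 without the block. Pdk1 kept its call without any single array. Slc2a1 lost it without hypertonic WT arrays 1 (-0.71, adjusted p = 0.071) or 2 (0.0544) or hypertonic KO arrays 1 (-0.68, 0.093) or 2 (0.0557), with centred arrays (-0.64, 0.0529) and with isotonic KO array 1 counted as WT (0.0542). Ankrd37 lost it without hypertonic WT arrays 2 (0.48, adjusted p = 0.0863) or 4 (0.44, 0.0984) or hypertonic KO arrays 2 (0.42, 0.124) or 4 (0.42, 0.104). Bnip3 gained a call without isotonic KO array 4 (adjusted p = 0.0258) or isotonic WT array 4 (0.0495), with centred arrays (0.95, 0.0309) and when only the arrays compared were fitted (0.0241). Egln3 was called lower in KO cells in that last setting (-0.43, adjusted p = 0.0431), against an adjusted p of 0.345 with all arrays.

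Centring the arrays on their medians moved the median of all genes by 0.15 in KO against WT hypertonic cells, by 0.15 in the KO hypertonic change and by 0.17 in the difference of changes. The share of higher among all called genes then went from 43.4% to 69.8%, from 42.9% to 68.9% and from 35.3% to 69.8%.

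The difference between the KO and the WT hypertonic change was tested directly. None of the 10 was called (limma, 2 with an unadjusted p below 0.05), against 3.35% higher and 6.15% lower. The largest was that of Egln3, at -1.20 ± 0.46 (95% interval -2.19 to -0.22, adjusted p = 0.127). Pdk1 differed by 0.97 ± 0.46 (adjusted p = 0.233), Bnip3 by 0.87 ± 0.46 (0.297) and Ankrd37 by 0.62 ± 0.24 (0.119). With the array number as a block the last 3 were called, at adjusted p of 0.0415, 0.0283 and 0.0304, which makes 3 higher and 0 lower against 5.54% and 8.97% of all genes. The second Bnip3 probe set differed by 0.81 ± 0.42 and was not called with the block (adjusted p = 0.07). Without isotonic WT array 4 Egln3 was called (-1.58, adjusted p = 0.0307), and with centred arrays Ankrd37 was (0.80, adjusted p = 0.0473). Without number 4 Bnip3 (1.00, adjusted p = 0.00167) and Egln3 (-1.40, adjusted p = 0.0137) were called.

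Wider lists around the 10 genes were written with earlier results of these data known and are given by counts without the 10. They are to be read beside the shares called over all genes given above and the median of 0.02. Of 20 genes for mitophagy receptors and machinery 1 was called higher and 3 lower in WT cells (median -0.04), 0 with Torin1 (4 with an unadjusted p below 0.05) and 7 higher and 4 lower in KO cells (median 0.07). Bnip3l, the closest relative of Bnip3 and likewise a mitophagy receptor, differed by -0.02 ± 0.08 in WT (adjusted p = 0.94) and by 0.01 ± 0.08 in KO cells (0.969). Pink1, the kinase that marks damaged mitochondria, was at 10.22, 9.43 and 9.74 in isotonic and 8.87, 8.78 and 9.25 in hypertonic WT arrays and fell by 0.83 ± 0.18 on the log2 scale (adjusted p = 0.0107). Dnm1l, the mitochondrial fission GTPase, changed by -0.41 in WT and -0.50 in KO cells. In KO cells Ulk1, the kinase that starts autophagy, rose by 1.00 ± 0.11 and Tbk1, which phosphorylates autophagy receptors, by 0.90 ± 0.15. Fundc1, of the same list, changed by -0.59 ± 0.13 in KO cells (adjusted p = 0.00283) and by 0.02 ± 0.13 in WT cells (0.965).

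Of 13 genes for pyruvate dehydrogenase and its regulators, 0 were called higher and 1 lower in WT cells, Mpc1 of the mitochondrial pyruvate carrier (-0.39 ± 0.10, adjusted p = 0.0286). The kinases related to Pdk1 did not pass there, with Pdk2 at -0.39, Pdk3 at -0.20 and Pdk4 at 0.25. In KO cells 1 rose and 2 fell, among them Pdk2 by 1.03 ± 0.25 (adjusted p = 0.00472). Pdk4 separated the lines in both media, 2.13 ± 0.32 higher in isotonic (adjusted p = 0.00023) and 2.77 ± 0.32 higher in hypertonic KO cells (adjusted p = 1.35e-05). Of 14 citric acid cycle genes 0 rose and 1 fell in WT cells, Sdhc of succinate dehydrogenase (-0.54 ± 0.10, adjusted p = 0.00407), and 0 rose and 4 fell in KO cells, Fh1 (-0.61) and Suclg1 (-0.58) the most.

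Of 12 other glycolytic enzymes 1 rose and 1 fell in WT cells, both subunits of phosphofructokinase. Pfkp was at 9.54, 10.01 and 9.79 in isotonic and 10.95, 10.91 and 10.51 in hypertonic WT arrays and rose by 1.01 ± 0.17 (adjusted p = 0.00325). Pfkm went from 10.42, 10.17 and 10.41 to 9.33, 9.71 and 9.96 and fell by 0.67 ± 0.13 on the log2 scale (adjusted p = 0.00653). In KO cells Pfkp rose by 0.48 ± 0.17 (adjusted p = 0.0463) and Pfkm changed by -0.995 ± 0.13 (adjusted p = 4.74e-05), with Eno3 and Ldhb also lower. With Torin1 0 of the 12 were called (3 with an unadjusted p below 0.05). Of 9 other glucose and lactate transporters 0 were called in WT cells (2 with an unadjusted p below 0.05), Slc2a3 standing at 0.21, and in KO cells 1 fell. Slc16a7, a monocarboxylate transporter, was lower in KO cells, at -3.27 ± 0.46 for isotonic and -2.54 ± 0.46 for hypertonic medium.

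Of 15 genes for oxygen sensing and HIF subunits 0 were called in WT cells (1 with an unadjusted p below 0.05), with Epas1 at 0.23, Arnt at -0.07, Vhl at -0.04, Egln1 at -0.15 and Egln2 at 0.12. In KO cells 5 rose and 0 fell, among them the coactivators Ep300 (0.88 ± 0.13, adjusted p = 0.000143) and Crebbp (0.63 ± 0.11, 0.00038) and Egln2 (0.50 ± 0.13, 0.00661). Arnt2, a partner subunit, and Cited2, which competes with HIF-1 for the coactivators, were lower in KO than in WT cells in both media. Arnt2 differed by -1.89 and -2.09 and Cited2 by -1.32 and -1.17, isotonic first. Of 28 other HIF-1 targets 3 rose and 2 fell in WT cells (median -0.02), 1 and 1 with Torin1 and 5 and 4 in KO cells. Car12, a carbonic anhydrase, rose by 0.87 ± 0.11 in WT cells (adjusted p = 0.00062) and Flt1, a VEGF receptor, by 0.92 ± 0.26 (adjusted p = 0.0421), while Gys1, glycogen synthase, and Wsb1 changed by -0.69 ± 0.15 and -0.58 ± 0.10. In KO cells Cxcr4 rose by 1.30 ± 0.25, and Ndrg1 and Ppp1r3c changed by -1.57 ± 0.27 and -1.48 ± 0.31. Of 8 other genes of the VEGF family and its receptors 3 rose and 0 fell in WT cells, with Nrp1, a coreceptor, 1.31 ± 0.18 higher, against 1 and 0 in KO cells.

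With the array number as a block, some of these list counts moved. Over all genes the block called 7.4% higher and 7.63% lower in WT cells. In WT cells it called 0 higher and 2 lower of the pyruvate dehydrogenase list, 0 and 2 of the citric acid cycle list and 0 and 1 of the transporters. With Torin1 it called 1 higher and 1 lower of the mitophagy list, 3 and 1 of the other HIF-1 targets, 1 and 0 of the glycolytic enzymes, where Pfkp passed (0.62, adjusted p = 0.0422), and 0 and 1 of the pyruvate dehydrogenase list, where Mpc1 passed (-0.36, adjusted p = 0.0451). In KO cells it called 2 higher and 4 lower of the pyruvate dehydrogenase list, with Pdk4 now past the test (0.88, adjusted p = 0.044), and 0 and 2 of the transporters. Of the mitophagy list it called 2 higher and 4 lower in WT cells. Of the other HIF-1 targets it called 4 and 3 in WT and 8 and 5 in KO cells. The VEGF list had 4 and 0 in WT cells, and 4 and 0 with Torin1, where 1 and 0 were called without the block. The other counts of these lists in the hypertonic comparisons given above stayed the same.

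**Figure D4:**
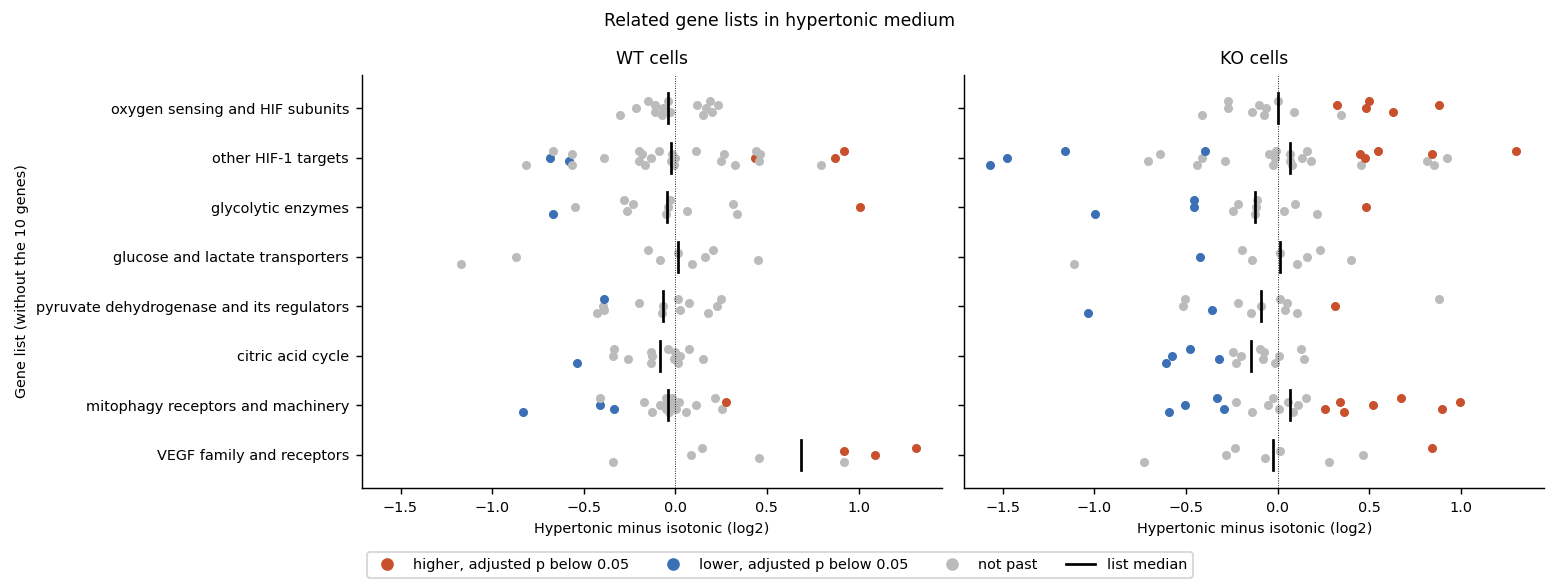
Hypertonic minus isotonic change (log2) of each tested gene in 8 related lists without the 10 genes, in WT cells (left) and KO cells (right), coloured where the adjusted p was below 0.05, with a bar at each list's median. The list medians lie from -0.08 to 0.07 except for the VEGF family, at 0.69 in WT cells, and in KO cells the glycolytic enzymes at -0.12, the citric acid cycle at -0.15 and pyruvate dehydrogenase at -0.09.

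Across the 18 arrays the genes formed more than 1 pattern, given here as a description since arrays share groups and numbers. Pdk1 correlated with Bnip3 at a Pearson r of 0.866, rank 20 of 15710 genes, while Slc2a1 and Hk2 correlated with Bnip3 at -0.36 and -0.24. Ldha and Pgk1 correlated at 0.854, Hk2 and Slc2a1 at 0.776 and Ldha and Egln3 at 0.810. The genes most like Bnip3 were Il17rc (r = 0.972), Pign (0.948) and Ctso (0.933), and those most like Pdk1 were Epdr1 (0.924), Asah2 (0.917) and Aldh7a1 (0.912), chosen as the 3 highest among the genes tested. In the 12 WT arrays alone the values with Bnip3 were 0.982, 0.968 and 0.930.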

How the data were processed

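Fibroblast RNA was hybridised to 18 Affymetrix gene arrays in 6 groups of 3. The authors deposited log2 signals from RMA (R 2.11.1, per the submitters' processing notes), which were used with no further normalization. RMA removes background, equalises the arrays' distributions and compresses differences of dim probe sets. Of 34760 probe sets 21640 name 1 gene, 1321 several and 11799 none. Each of 19937 genes is its brightest such probe set (954 had more than 1). Genes whose highest group mean exceeded 5.86 log2, the 30th percentile over the whole table, entered the tests (15711 genes). No source used here names the files' genome build, and promoters are those of RefSeq, GRCm38.p6.

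limma 3.58.1 in R 4.3.3 fitted 1 mean for each group over all arrays (12 residual and 3.29 prior degrees of freedom), and 9 contrasts were adjusted by Benjamini-Hochberg over all 15711 genes. The fit was tested on simulated data. The members and lists were chosen with earlier results of these data known. Named are the 10 genes, their closest relatives, Nfat5, up to 2 called genes per list, direction and contrast whose arrays do not overlap, and the 3 genes most like Bnip3 and Pdk1, of which the text gives part.

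The array numbers were taken to pair the arrays, because in all 21 same-number pairs of directly compared groups the deviations from the group means correlated above 0.1 (0.156 to 0.847). What the numbers stand for is not stated. The fit given first has no block, and blocked values stand beside results whose call they change. Alternatives were other filters, the mean of probe sets, quantile normalization, median centring, only the arrays compared, the block, isotonic KO array 1 as WT, and each array left out. Leaving out number 4 was added with the data known.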

Additional observations from a re-analysis of the deposited data

Results flagged for a closer look

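Bnip3, Pdk1 and Ankrd37 changed differently in KO and WT cells in hypertonic medium by a test of that difference (an interaction in limma), when the array number entered the fit as a block. The KO change minus the WT change was 0.87 for Bnip3, 0.97 for Pdk1 and 0.62 for Ankrd37 on the log2 scale, with blocked adjusted p of 0.0283, 0.0415 and 0.0304. Without the block the adjusted p were 0.297, 0.233 and 0.119, so none of the 3 passed there. Without number 4 and without the block Bnip3 passed (1.00, adjusted p = 0.00167), while Pdk1 (0.71, adjusted p = 0.0642) and Ankrd37 (0.55, adjusted p = 0.054) did not. With arrays centred on their medians Ankrd37 passed (0.80, adjusted p = 0.0473). For Bnip3 the difference within numbers 1, 2 and 4 goes from -1.59, -1.34 and -1.88 in WT to -0.55, -0.38 and -1.28 in KO cells, smaller in 3 of 3 numbers. Its second probe set did not pass with the block (adjusted p = 0.07).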

How the results depend on the processing

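Over all alternatives no called change of the 10 genes turned its sign. The number of the 10 called in hypertonic WT cells was 2 in every leave-out of 1 array, 0 when only the arrays compared were fitted and 5 without number 4. With Torin1 it was 0, and 0 to 1 with 1 array left out, 3 with the replicate block and 6 without number 4. In KO cells it was 1, and 0 to 1 with 1 array left out, 0 with no filter on dim genes, 0 with isotonic KO array 1 counted as WT, 4 with the block and 5 without number 4. For Torin1 in hypertonic WT it was 0, 1 with the block and 2 without number 4. KO against WT gave 0 in isotonic medium, 0 to 1 with 1 array left out and 3 without number 4. In hypertonic medium it gave 3, 1 to 4 with 1 array left out, 5 with the block, 5 with only the arrays compared and 5 without number 4. The difference between the KO and WT changes gave 0, 0 to 1 with 1 array left out, 1 with centred arrays, 3 with the block and 2 without number 4. The causes were not tested, except that fewer arrays enter the leave-outs. For the 10 genes the block changed no other call than those given with the results. For single genes under other settings, 738 changes kept direction and side of the threshold, 8 dropped below it, 40 came past it and 24 uncalled ones turned their sign. Under leave-outs these were 1524, 19, 7 and 70. Precision is limited by the number of arrays, 3 in each group.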
